A study of Mus musculus with 18 samples.

Results

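The genes described here code for the CD3 chains of the T cell receptor complex (Cd3d, Cd3e, Cd3g and Cd247) and for the proteins that act next to it (the kinases Lck and Zap70, the adaptors Lat and Lcp2, and Themis). They are 9 of 49980 genes of the RefSeq annotation of the mouse assembly GRCm38.p6. They were chosen by name, and every chimeric read on the gene's own strand between its first and last annotated base was counted, introns included. They held 7718 of the 1190995 chimeric reads of the 12 libraries. Themis accounted for 5076 of the 7718 reads (65.8%) and Cd247 for 1343 (17.4%), followed by Lcp2 with 379, Lck with 232, Cd3g with 182, Cd3e and Lat with 158 each, Zap70 with 112 and Cd3d with 78.

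The libraries were made by miR-eCLIP from thymocytes of 6-week-old mice. In this assay UV light (254 nm) crosslinks RNA to Argonaute 2 (Ago2), Ago2 is immunoprecipitated (IP), and the miRNA it carries is ligated to the target fragment in the same complex, so that 1 chimeric read names a miRNA and places its target. Wild-type mice were C57BL/6, and knockout mice carried the allele B6.Mirc14tm1.1Ankr, by its name a targeted mutation of the miRNA cluster Mirc14, which the sample titles give as a knockout of miR-181a/b-1. Both genotypes have 3 libraries of the plain Ago2 IP and 3 of an Ago2 IP that was then enriched for miR-181 chimeras, which makes 4 groups. The 6 input samples were not analysed here. No sample received a drug or a stimulus in the labels, all cells of the strained thymus were taken without a sort, and the other miR-181 genes are not named as changed. The labels do not say whether the libraries of a group came from separate mice, so p-values measure the spread between these libraries, which may be technical.

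The CD3 chains pair into CD3 gamma-epsilon and delta-epsilon dimers and a CD3 zeta homodimer (Cd247), and carry the cytoplasmic motifs that the kinase Lck phosphorylates when the receptor binds its ligand. Zap70 docks on the phosphorylated motifs and phosphorylates Lat and Lcp2 (SLP-76), the scaffolds from which calcium and Ras signals start. Themis is a thymocyte protein required for normal positive selection, and miR-181a is known in thymocytes for raising the sensitivity of the receptor through its repression of phosphatases.

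The mature miRNAs that the results turn on are printed because the reads differ by them: the 4 members of the miR-181 family, which share 1 seed, and the 2 miRNAs outside that family that led on single members. Sequences are from the RefSeq annotation of GRCm38.p6, written 5′ to 3′, with the seed (bases 2 to 8) in capitals.

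mmu-miR-181a-5p: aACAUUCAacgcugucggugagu

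mmu-miR-181b-5p: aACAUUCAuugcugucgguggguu

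mmu-miR-181c-5p: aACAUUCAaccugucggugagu

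mmu-miR-181d-5p: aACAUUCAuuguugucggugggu

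mmu-miR-142a-3p: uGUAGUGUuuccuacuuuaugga

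mmu-miR-18a-5p: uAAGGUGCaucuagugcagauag

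The mature forms of miR-181a and miR-181b first differ at position 9, counted from the 5′ end, and share 20 of the first 23 bases when aligned without gaps. Of 124 miRNA names found on the 9 genes, 90 were matched to a mature sequence.

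The libraries held between 6832 and 293149 chimeric reads, and values are given as reads per 1000000 chimeric reads of the library (rpm). A single read was worth 8.49 to 22.7 rpm in wild-type Ago2 IP libraries, 14.8 to 19.2 rpm in their knockout counterparts, 3.41 to 5.14 rpm in wild-type enriched libraries and 51.9 to 146 rpm in the shallow knockout enriched libraries. A chimeric read needs both a target RNA and a miRNA contact, so a level is not an expression level, and in these bulk samples fewer cells of a type and less RNA per cell cannot be told apart. All 10 thymocyte markers, Cd4 and Cd8a among them, had reads. They summed to 16143 to 16895 rpm per library in the wild-type and 13927 to 14888 rpm in the knockout Ago2 IP, and to 14648 to 15975 rpm and 16412 to 16979 rpm in the wild-type and knockout enriched libraries. Over all 12 libraries the markers of B cells had 24 reads, of myeloid cells 38 with Cd14 at 0, of erythroid cells 39, and of epithelial cells 1 with Krt5, Krt8, Foxn1 and Psmb11 at 0. The stromal list had 221 reads, all of the endothelial gene Pecam1, with Col1a1, Col1a2, Col3a1 and Pdgfra at 0. Pecam1 summed to 246 to 305 rpm in wild-type and 378 to 458 rpm in knockout Ago2 IP libraries. Of the coreceptor genes among the thymocyte markers, Cd4 went from 1987 ± 428 rpm in wild-type to 677 ± 44 rpm in knockout Ago2 IP libraries. Cd8a went from 1279 ± 63 to 731 ± 121 rpm and Cd8b1 from 474 ± 38 to 481 ± 54 rpm (SD, n = 3). These values include miR-181 reads. The fitted log2 fold change of Cd4 was -1.63 with all reads and -0.43 with miRNAs other than miR-181 alone. For Cd8a the values were -0.84 and -0.72. The part of these genotype differences in thymocyte markers and Pecam1 in the results below was not tested.

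Among the CD3 chains, Cd247, which codes for the zeta chain, held the most reads. It was the only 1 of the 6 members tested that was called lower in the knockout in the Ago2 IP. That call was lost in 8 of 13 alternatives. The gene lies on chr1:165779952-165871153, plus strand (coordinates here are 1-based, build GRCm38). Its wild-type Ago2 IP libraries held 195, 100 and 65 reads, which are 1655, 1448 and 1478 rpm. The knockout ones held 63, 70 and 72 reads, which are 1036, 1035 and 1382 rpm. The groups did not overlap, as was so for 25.9% of all genes tested, and the third knockout library lay close to the lower wild-type ones.

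The fitted log2 fold change of Cd247, knockout over wild type, was -0.46 (SE 0.15, adjusted p = 0.0424, edgeR, n = 3 against 3). Cd247 was the only 1 of the 6 members tested in this fit that was called, where 10.2% of all 1615 genes tested were called of which 3.41% of genes were higher and 6.75% lower. Its call was lost in 8 of 13 alternatives, with log2 fold changes between -0.59 and -0.39 and adjusted p from 0.007 to 0.310 (the latter in DESeq2). Without wild-type library 1 the value was -0.39 (adjusted p = 0.207), without knockout library 1 it was -0.40 (0.152) and without knockout library 2 it was -0.40 (0.182).

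The difference of Cd247 did not lie in the miR-181 reads alone. Counted only with miRNAs outside the miR-181 family and scaled to those reads, wild-type libraries stood at 1676, 1488 and 1746 rpm of those reads, and knockout libraries at 1034, 1020 and 1383. The fitted value was -0.53 (SE 0.16, adjusted p = 0.0413, edgeR). In that fit 2.29% of 1396 genes were called, 0.788% higher and 1.5% lower, and Cd247 was again the only member called, of 5 tested; 9 of 13 alternatives lost the call.

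Sites were defined as runs of same-strand positions with neighbours at most 20 nt apart, joined over all libraries, and those with at least 10 pooled reads were described. Cd247 had 19 such sites. The site with the most reads, chr1:165820061-165820167, lies 40.1 kb from the start of the span and held 180 reads, 177 of them with miR-181. It had 16, 5 and 2 reads in wild-type Ago2 IP libraries, 1, 1 and 0 in knockout ones, 49 in each wild-type enriched library, and 2, 6 and 0 in knockout enriched ones. All 3 wild-type Ago2 IP libraries lay above the knockout ones in rpm, and the pooled ratio of wild type to knockout was 8.99 (exact 95% counting interval 2.22 to 78.7). The site did not pass the filter of the fit over sites.

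The next Cd247 site, chr1:165792819-165792954 at 12.9 kb, was of a different kind. It held 95 reads, 83 with miR-142a-3p and 5 with miR-181. It had 21, 14 and 10 reads in wild-type and 15, 10 and 19 in knockout Ago2 IP libraries, and the groups overlapped, with a fitted log2 fold change of 0.18 (SE 0.35, adjusted p = 0.713, edgeR). The site at 41.1 kb (chr1:165821056-165821117) held 60 reads, 58 with miR-181. It had 3, 1 and 0 reads in wild-type and none in knockout Ago2 IP libraries, which allows up to 3 reads there. After enrichment it had 53 wild-type and 3 knockout reads, pooled at 71.5 and 78.4 rpm.

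Summed over Cd247, sites whose pooled reads were mostly miR-181 had 74 wild-type and 17 knockout reads in the Ago2 IP (299.5 ± 65.2 against 94.1 ± 32.5 rpm, SD, n = 3 each). Its other sites had 294.6 ± 66.3 against 322.2 ± 141.3 rpm. Reads of Cd247 outside any site of at least 10 reads had 932.6 ± 64.8 against 734.8 ± 101.5 rpm, with libraries at 864.0 to 992.8 against 625.1 to 825.3 rpm. The classes were set from the pooled reads, so these sums carry no test.

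Cd3e codes for the epsilon chain, which both dimers need, and its reads came mostly from miRNAs other than miR-181. It lies on chr9:44998735-45009663, minus strand. In the Ago2 IP it had 33, 20 and 5 reads in wild-type and 17, 21 and 18 in knockout libraries, or 227.7 ± 98.9 and 311.9 ± 32.9 rpm (SD, n = 3). Wild-type library 3 was low, the groups overlapped, and the fitted log2 fold change was 0.28 (SE 0.28, adjusted p = 0.610, edgeR).

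Of the 114 reads of Cd3e in the Ago2 IP libraries, 48 (42.1%) carried miR-18a-5p, which made up 0.86% of all wild-type and 1.35% of all knockout Ago2 IP reads. They gathered at the single Cd3e site, chr9:44999177-44999322, which ends 442 nt before the 3′ end of the span. This site had 12, 8 and 3 reads in wild-type and 12, 8 and 12 in knockout Ago2 IP libraries, 16 of 23 and 28 of 32 of them with miR-18a-5p. In wild-type enriched libraries it had 5, 0 and 0 reads.

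Cd3g and Cd3d, which code for the gamma and delta chains, lie side by side and had few reads. Cd3g (chr9:44969572-44980431, minus strand) had 26, 9 and 4 reads in wild-type and 10, 8 and 16 in knockout Ago2 IP libraries, with overlap and a fitted value of 0.15 (SE 0.37, adjusted p = 0.865, edgeR). Its main site, chr9:44973513-44973631, held 89 reads, 81 with miR-181, and had 6, 1 and 2 reads in wild-type, 0, 0 and 4 in knockout Ago2 IP, and 33, 21 and 14 in wild-type enriched libraries. Its other sites, chr9:44976639-44976713 with 19 reads and chr9:44974210-44974320 with 15, held 14 and 9 reads of miR-142a-3p.

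Cd3d (chr9:44981769-44987052, plus strand) had 15, 3 and 4 reads in wild-type and 10, 13 and 4 in knockout Ago2 IP libraries, too few for the fit. The groups overlapped (87.2 ± 42.0 and 144.5 ± 60.3 rpm, SD, n = 3). The site chr9:44985060-44985073 held 15 reads, all with miR-142a-3p, and chr9:44984979-44985039 held 12, 7 of them with miR-142a-3p. The third, chr9:44986722-44986728, ends 324 nt before the end of the span and held 10 reads, all with miR-181. Of these, 7 came from wild-type enriched, 3 from wild-type Ago2 IP and none from knockout libraries. Taking 3 reads as the limit, the pooled ratio of wild type to knockout is at least 0.12 after enrichment and 0.78 in the Ago2 IP. The genotypes cannot be told apart there.

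Lck is the kinase that starts the signal, and its reads did not differ detectably between genotypes. The gene (chr4:129548344-129573641, minus strand) had 22, 16 and 10 reads in wild-type and 12, 13 and 10 in knockout Ago2 IP libraries, 215.2 ± 24.8 and 193.8 ± 3.1 rpm (SD, n = 3). The groups overlapped, and the fitted value was -0.13 (SE 0.32, adjusted p = 0.866, edgeR). Its site chr4:129556046-129556144 held 52 reads, all with miR-181, with 3, 2 and 0 in wild-type and none in knockout Ago2 IP libraries, which allows up to 3 reads there. A smaller site, chr4:129555954-129555993, held 10 reads.

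Zap70, the kinase that docks on the phosphorylated CD3 motifs, had the lowest level per length of the 9 genes in both wild-type groups. The gene (chr1:36761798-36782821, plus strand) had 13, 10 and 6 reads in wild-type and 10, 8 and 13 in knockout Ago2 IP libraries, 130.5 ± 18.0 and 177.4 ± 66.6 rpm (SD, n = 3), with overlap and too few reads for the fit. Its single site, chr1:36780881-36780919, held 11 reads, all with miR-181a-5p, 10 from wild-type enriched and 1 from wild-type Ago2 IP libraries. None came from a knockout library. Taking 3 reads as the limit, the pooled ratio of wild type to knockout is at least 0.17 after enrichment and 0.26 in the Ago2 IP. The genotypes cannot be told apart there.

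Lat, the membrane scaffold, had few reads in the Ago2 IP and rose with the enrichment for miR-181. It had 7, 4 and 2 reads in wild-type and 3, 2 and 5 in knockout Ago2 IP libraries, too few for the fit, and the groups overlapped. In wild-type enriched libraries it had 55, 45 and 33 reads, 178.2 ± 9.1 rpm, where the unenriched wild-type libraries had 54.3 ± 7.6 rpm (SD, n = 3). All enriched libraries lay above all Ago2 IP ones, where 53.4% of all genes tested did not overlap. The fitted log2 fold change, enriched over Ago2 IP, was 2.03 (SE 0.35, adjusted p = 1.07e-05, edgeR), called in 13 of 13 alternatives. Lat passed the count filter through the enriched libraries alone. A difference in that direction was thus fixed by the filter, and the call is a description.

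Lat is a short gene (chr7:126363827-126369705, minus strand) with 3 named sites. The site chr7:126363828-126363991 reaches to 1 nt before the 3′ end of the span and held 39 reads, 38 with miR-181. Wild-type enriched libraries had 16, 13 and 6 reads there and knockout enriched ones 2, pooled at 47.2 and 52.2 rpm. Wild-type Ago2 IP libraries had 2 reads and knockout ones none. The site chr7:126364362-126364453 held 22 reads, all with miR-181a-5p and all from wild-type enriched libraries. Taking 3 reads as the limit for the knockout enriched libraries, the pooled ratio of wild type to knockout there is at least 0.38. The site chr7:126367901-126368006 held 31 reads, 28 with miR-181, and overlaps the hairpin of Mir7058 on the same strand (chr7:126367971-126368045). Within that hairpin lay 11 reads, 9 with miR-181 and 2 with miR-7058. The hairpin, in the RefSeq sequence, holds neither the 7 letters UGAAUGU, the complement of the miR-181 seed, nor the 6 letters GAAUGU within them, searched on the gene's strand; 0.796% and 2.39% of 1005 mouse hairpins hold them.

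Lcp2, the cytosolic adaptor phosphorylated by Zap70 (chr11:34046928-34092281, plus strand), had 56, 25 and 18 reads in wild-type and 31, 32 and 25 in knockout Ago2 IP libraries. These were 415.5 ± 56.9 and 487.6 ± 19.6 rpm (SD, n = 3), with overlap, and the fitted value was 0.17 (SE 0.23, adjusted p = 0.750, edgeR). Its first site, chr11:34080187-34080203, is only 17 nt wide and held 36 reads, 35 with miR-181, with 2, 0 and 1 in wild-type and 0, 1 and 0 in knockout Ago2 IP libraries. The sites chr11:34071092-34071160 and chr11:34089563-34089617 held 10 reads each.

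Themis held the most reads of the 9 genes in each of the 12 libraries. Its total did not differ detectably between genotypes, while its 2 sites with most reads, both mostly miR-181, were lower in the knockout. The gene (chr10:28668360-28883820, plus strand) had 629, 331 and 200 reads in wild-type and 303, 352 and 290 in knockout Ago2 IP libraries. These were 4892 ± 405 and 5252 ± 294 rpm (SD, n = 3), the groups overlapped, and the fitted log2 fold change was 0.064 (SE 0.094, adjusted p = 0.767, edgeR). Themis had 60 of the 97 sites with at least 10 reads in the 9 genes.

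The Themis site with the most reads, chr10:28809108-28809361, lies 140.7 kb from the start of the span. It held 642 reads over 89 positions, 633 with miR-181, of which 491 were miR-181a-5p and 138 miR-181b-5p. Wild-type Ago2 IP libraries had 25, 20 and 17 reads there and knockout ones 0, 1 and 0 (296.1 ± 87.4 and 4.9 ± 8.5 rpm, SD, n = 3). Every wild-type library lay far above every knockout one, and the pooled ratio was 48.5 (exact 95% counting interval 8.38 to 1945). The fitted log2 fold change was -5.34 (SE 0.69, adjusted p = 2.65e-11, edgeR), which with 1 knockout read depends on the prior count of the fit. The site passed the count filter through the wild-type libraries alone, where it is high.

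The second, chr10:28757891-28758065 at 89.5 kb, held 424 reads, 413 with miR-181. It had 39, 15 and 11 reads in wild-type and 3, 4 and 1 in knockout Ago2 IP libraries (266.1 ± 58.5 and 42.6 ± 20.8 rpm, SD, n = 3). The groups did not overlap, the pooled ratio was 6.35 (exact 95% counting interval 3.04 to 15.3), and the fitted log2 fold change was -2.74 (SE 0.47, adjusted p = 1.59e-07, edgeR). This site, too, passed the count filter through the wild-type libraries alone. Of the 8 knockout reads, 4 carried a miR-181 name and 4 another miRNA, against 7 reads of other miRNAs in wild type.

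The third Themis site, chr10:28786765-28786968 at 118.4 kb, was contacted by several miRNAs. Of its 256 reads, 126 carried miR-142a-3p, 85 miR-181 and 17 let-7f-5p. It had 47, 27 and 12 reads in wild-type and 26, 37 and 28 in knockout Ago2 IP libraries (354.2 ± 70.6 and 504.1 ± 66.3 rpm, SD, n = 3), with a fitted value of 0.31 (SE 0.27, adjusted p = 0.393, edgeR). There 9 wild-type reads and no knockout read carried miR-181, and 56 and 67 carried miR-142a-3p. Values are per all reads, so the rpm of contacts by other miRNAs is higher in the knockout by construction.

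A further miR-142a site of Themis, chr10:28801813-28801987 at 133.5 kb, was chosen after its values were seen. It held 157 reads, 132 with miR-142a-3p. It had 40, 12 and 8 reads in wild-type and 30, 23 and 26 in knockout Ago2 IP libraries (231.7 ± 93.4 and 444.2 ± 90.2 rpm, SD, n = 3). Reads of miRNAs other than miR-181 made up 69.2% of all wild-type and 98.6% of all knockout Ago2 IP reads. The rpm of their contacts is thus higher in the knockout by construction. The fitted value of the site, 0.66 (SE 0.31, adjusted p = 0.0833, edgeR), did not pass the threshold. It passed without wild-type library 1 (1.07), without knockout library 2 (0.82) and with library sizes alone as scaling (0.80, adjusted p = 0.0294, edgeR). The median of all sites tested was 0.15 in the main fit and 0.30 with library sizes alone.

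Of the 97 sites of the 9 genes, 5 passed the count filter of the fit over sites in the Ago2 IP. The 2 miR-181 sites among them, both in Themis, passed it through the wild-type libraries alone, where they are high. A difference in that direction was thus fixed by the filter, and their calls are a description. These 2 sites were called lower, as were 25.5% of all 251 sites tested, and 36.3% were called in either direction. Both kept their call in 12 of 12 alternatives, with ranges over left-out libraries of -7.29 to -4.89 and -3.05 to -2.52, and the second stood at -1.85 with positions joined over 50 nt. Summed over Themis, mostly-miR-181 sites had 306 wild-type and 71 knockout reads in the Ago2 IP, 1309 ± 88 against 387.1 ± 76.6 rpm (SD, n = 3). Its other sites had 1149 ± 265 against 2069 ± 386 rpm, and reads outside sites 2434 ± 140.2 against 2795 ± 102.3 rpm. The classes were set from the pooled reads, and no test was made. With fewer miR-181 reads in the knockout, the rpm of the other sites is higher there by construction.

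**Figure D1:**
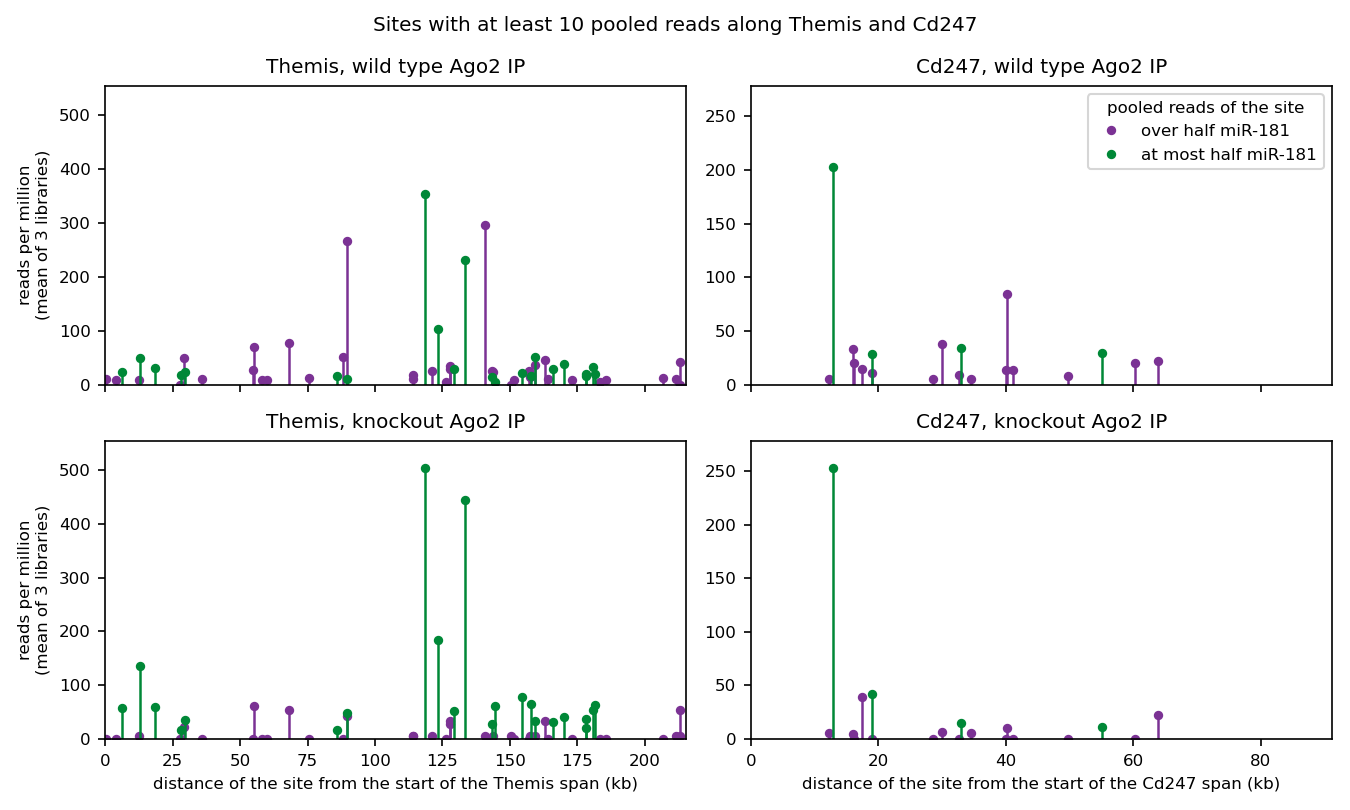
Sites with at least 10 pooled reads along Themis (left) and Cd247 (right) in the wild-type (top) and knockout (bottom) Ago2 IP: the x axis is the distance from the start of the span in kb, and the height of each line is the mean of 3 libraries in rpm. Purple sites have over 50% miR-181 in their pooled reads and green sites at most 50%. The purple Themis sites at 89.5 and 140.7 kb stand at 266.1 and 296.1 rpm in wild type and 42.6 and 4.9 rpm in the knockout, while the green site at 118.4 kb stands at 354.2 and 504.1 rpm. Values are per all reads, so with fewer miR-181 reads in the knockout the rpm of contacts by other miRNAs is higher by construction.

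**Figure D2:**
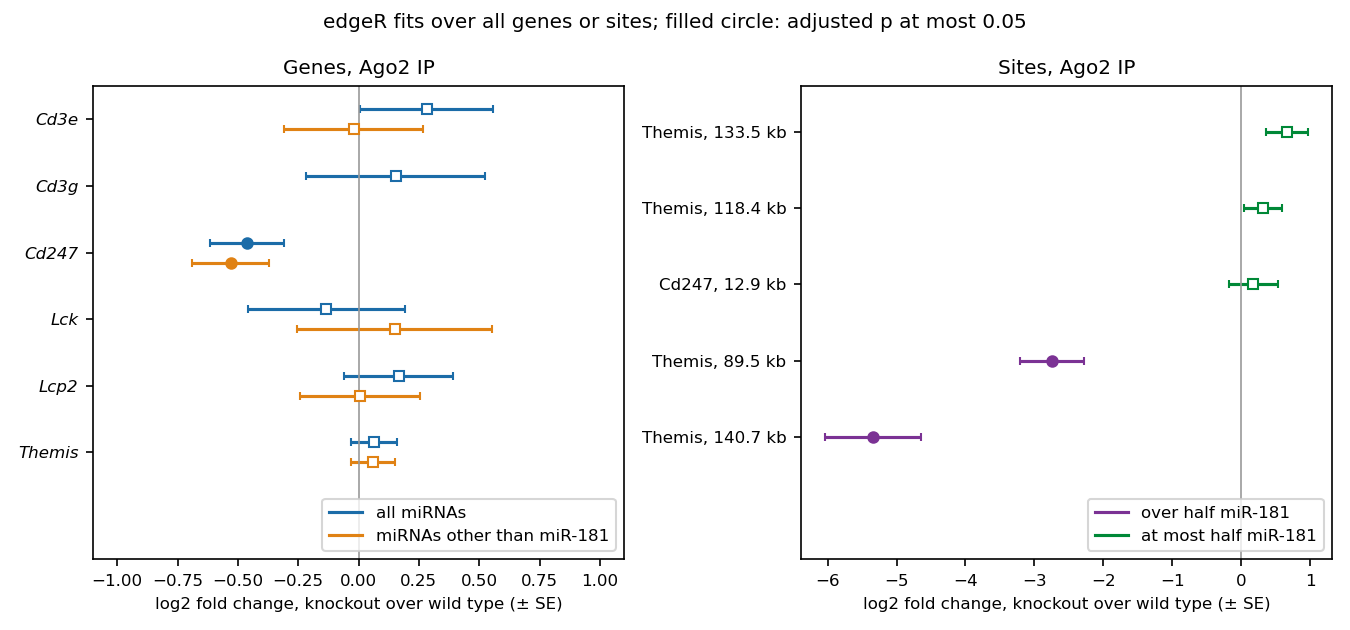
Log2 fold changes, knockout over wild type, in the Ago2 IP for the members tested (left, all miRNAs in blue and miRNAs other than miR-181 in orange) and for the 5 sites tested (right, with their distance from the start of the span), with bars of 1 SE and filled circles at an adjusted p of at most 0.05. Cd247 is the filled gene in both fits (-0.46 and -0.53), and the Themis sites at 140.7 and 89.5 kb are the filled sites (-5.34 and -2.74). Both filled sites passed the count filter through the wild-type libraries alone.

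Over the 9 genes together, the Ago2 IP libraries of both genotypes held like totals, 7697 ± 678 rpm in wild type and 7973 ± 628 rpm in the knockout (SD, n = 3). Totals are per all reads, so like totals do not mean like contacts. Reads with miR-181 on the 9 genes numbered 524 in wild type and 19 in the knockout, pooled at 2269 and 105 rpm. Groups of single members overlapped, except for Cd247; among all genes tested, 25.9% had groups that did not overlap. The values of the other members tested by miRNAs outside the miR-181 family were 0.15 for Lck (SE 0.40), -0.020 for Cd3e (SE 0.29), 0.060 for Themis (SE 0.090) and 0.0054 for Lcp2 (SE 0.25).

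**Figure D3:**
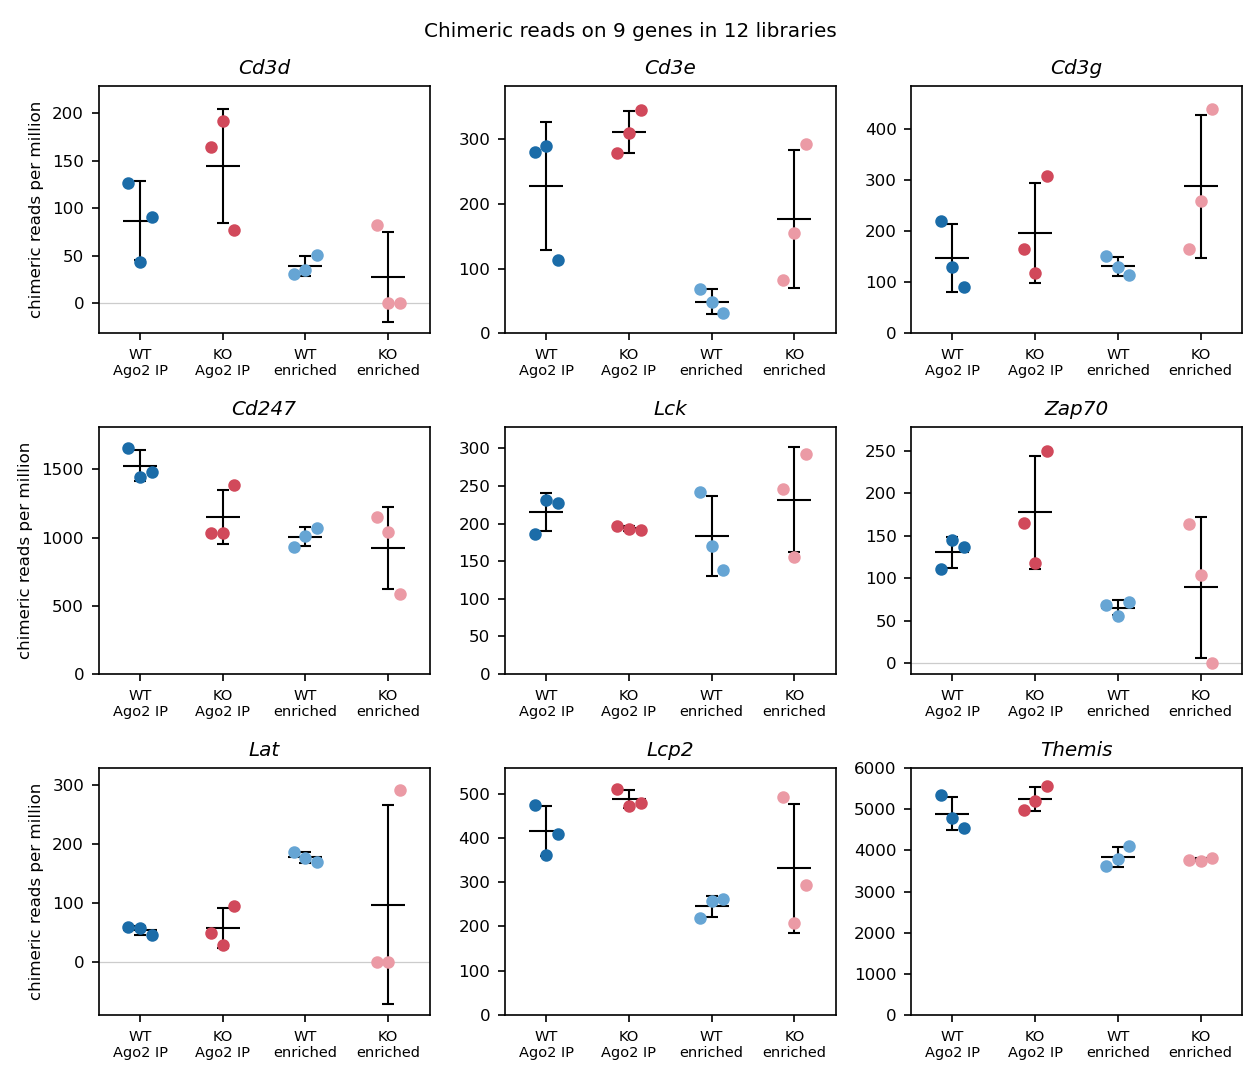
Chimeric reads in rpm on each of the 9 genes, 1 panel per gene with its own y axis, in the 3 libraries of each group (points), with the group mean and SD (black bars). Cd247 is the gene whose knockout Ago2 IP libraries (1035 to 1382 rpm) all lie below the wild-type ones (1448 to 1655 rpm), and Lat is the gene whose wild-type enriched libraries (169.6 to 187.6 rpm) all lie above the wild-type Ago2 IP ones (45.5 to 59.4 rpm).

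Per kb of span, the order of levels in the wild-type Ago2 IP was Themis (22.7 ± 1.9 rpm per kb, SD, n = 3), Cd3e (20.8 ± 9.0), Cd247 (16.7 ± 1.2), Cd3d (16.5 ± 8.0), Cd3g (13.6 ± 6.1), Lat (9.2 ± 1.3), Lcp2 (9.2 ± 1.3), Lck (8.5 ± 1.0) and Zap70 (6.2 ± 0.9). Neighbours in this order overlapped in their libraries, except Lck and Zap70. In the wild-type enriched libraries Lat stood first with 30.3 ± 1.5 rpm per kb, ahead of Themis with 17.9 ± 1.1, and neither overlapped its neighbour, while Zap70 was last with 3.1 ± 0.4. In the knockout Ago2 IP, Cd3e, Cd3d and Themis led with 28.5, 27.3 and 24.4 rpm per kb and overlapped. Spans include introns, so a level per kb is a density of contacts over the whole gene.

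The share of reads with a miR-181 name ran from 12.1% for Cd3e to 76.9% for Lat in the wild-type Ago2 IP. Pooled over its 3 libraries, it was 28.7% over the 9 genes, with a library mean of 28.5% ± 0.68, against 31.1% ± 1.09 over whole libraries (SD, n = 3). Lat had 10 of 13 reads (76.9%, 95% Wilson interval 49.7 to 91.8) and Lck 20 of 48 (41.7%, 28.9 to 55.7). Themis had 350 of 1160 (30.2%, 27.6 to 32.9), Cd247 99 of 360 (27.5%, 23.1 to 32.3) and Cd3d 6 of 22 (27.3%). Zap70 had 6 of 29 (20.7%), Lcp2 20 of 99 (20.2%, 13.5 to 29.2), Cd3g 6 of 39 (15.4%) and Cd3e 7 of 58 (12.1%, 5.97 to 22.9).

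The intervals of Lat and Lck lay above 28.7% and that of Cd3e below it, while those of the other 6 members included it; they cover counting error only. In the knockout Ago2 IP the share was 1.33% over the 9 genes and 1.38% over whole libraries. Themis had 14 of 945 reads (1.48%), Cd247 4 of 205 (1.95%) and Cd3g 1 of 34. The other 6 members had none, which allows up to 3.41% for Lcp2, 5.36% for Cd3e, 8.57% for Lck, 9.68% for Zap70, 11.1% for Cd3d and 30% for Lat, taking 3 reads as the limit.

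**Figure D4:**
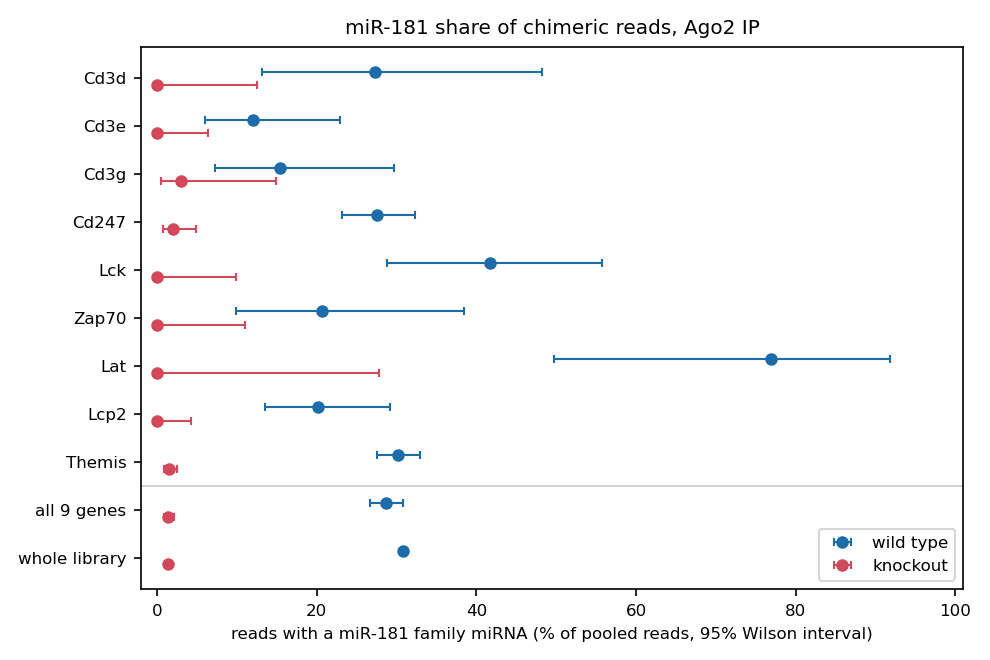
Share of chimeric reads with a miR-181 family miRNA (x axis, percent of pooled reads of 3 libraries, bars 95% Wilson intervals) for the 9 genes, their sum and the whole library in the Ago2 IP, wild type in blue and knockout in red. Wild-type shares run from 12.1% for Cd3e to 76.9% for Lat, and each knockout share lies below its wild-type share.

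After the enrichment, 98.7% of the reads of the 9 genes carried miR-181 in wild type, against 98.95% of whole libraries. In the knockout enriched libraries the share was 72.4% for the 9 genes and 71.9% for whole libraries, with 109 of 144 reads for Themis (75.7%), 27 of 38 for Cd247 (71.1%) and 4 of 12 for Lcp2 (33.3%). The makeup of the family also differed there: of the reads on the 9 genes, 30.2% were miR-181a-5p, 16.4% miR-181b-5p, 15.6% miR-181c-5p and 10.2% miR-181d-5p. In wild-type enriched libraries miR-181c-5p made up 0.87% and miR-181d-5p 0.54%. In the Ago2 IP, miR-181c-5p had 4 wild-type and 1 knockout read on the 9 genes, and miR-181d-5p had 6 and 6.

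Outside the miR-181 family, miR-142a-3p, a miRNA of blood cells, was the most frequent partner. It was on 34.4% of the wild-type and 50.8% of the knockout Ago2 IP reads of the 9 genes, against 27.8% and 39.6% of whole libraries. Its share of both genotypes' Ago2 IP reads was 61.2% on Cd3d, 52.1% on Cd3g, 43.8% on Themis (921 of 2105), 42.5% on Cd247, 40.1% on Lcp2, 31.7% on Zap70, 24.1% on Lck and 10.5% on Cd3e. Lat had 1 such read. Shares of a library add up to the whole, so with fewer miR-181 reads in the knockout the shares of other miRNAs are higher by construction.

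The other miRNAs with most reads on the 9 genes were miR-16-5p (2.46% in wild type and 3.42% in the knockout Ago2 IP), let-7a-5p (2.19% and 3.42%), let-7f-5p (2.57% and 2.66%) and miR-18a-5p (1.91% and 3.42%). Whole libraries had more of miR-16-5p (4.07% and 5.56%) and let-7a-5p (2.96% and 3.90%). They had 2.08% and 2.75% of let-7f-5p and less of miR-18a-5p (0.86% and 1.35%). Grouped by seed over both genotypes, GUAGUGU of miR-142a-3p had 41.6% of the Ago2 IP reads of the 9 genes. ACAUUCA of the miR-181 family, under 4 names, had 16.7%, and GAGGUAG of the let-7 family, under 9 names, had 11.8%.

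The 4 miR-181 names did not take equal parts of each site, and miR-181a-5p and miR-181b-5p, which share a seed, split differently from site to site. Over all reads of the wild-type enriched libraries miR-181b-5p made up 18.4% of the 2 (library mean 18.6% ± 1.53, SD, n = 3). Of 27 member sites with at least 20 such reads, 3 were over 50% (11.1%), while 257 of all 3223 clusters were (7.97%), with a median of 9.84%. These 3 lay in Cd247, Cd3g and Lck.

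At the Cd247 site at 40.1 kb, 72.7% were miR-181b-5p (95% Wilson interval 64.9 to 79.4), with 36 of 47, 31 of 47 and 37 of 49 reads in the 3 libraries. At the Cd3g site chr9:44973513-44973631 the share was 71.6% (59.9 to 81.0), with 23 of 33, 15 of 21 and 10 of 13 reads. At the Lck site chr4:129556046-129556144 it was 66.7% (52.1 to 78.6), with 13 of 21, 6 of 13 and 11 of 11 reads, so that library 2 lay below 50%. Every library of the Cd247 and Cd3g sites lay above 50%.

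The Themis sites at 140.7 and 89.5 kb had 21.8% and 25.4%. At 4 member sites no read carried miR-181b-5p, the deepest being chosen after its values were seen, the Themis site at 162.9 kb, with 0 of 84 reads. Over whole genes the share was 57.7% for Cd3g, 36.8% for Lck, 31.0% for Cd247 and 18.2% for Themis. No test was made of these shares.

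**Figure D5:**
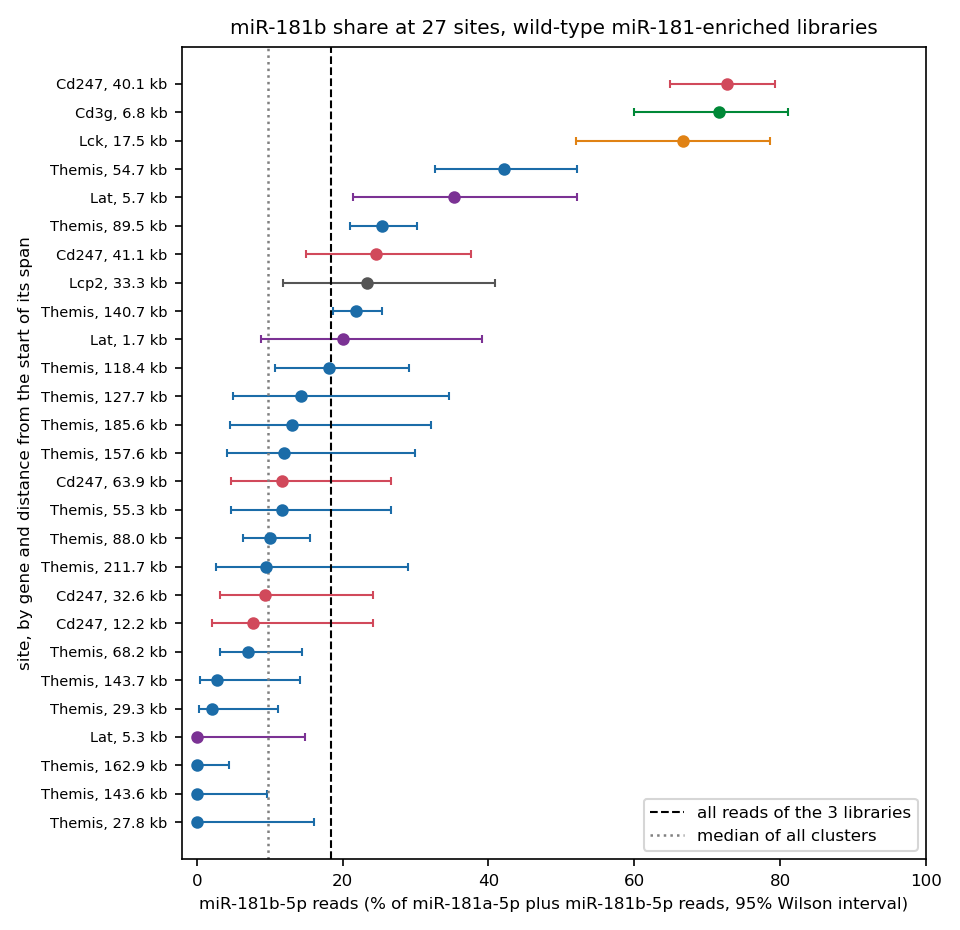
Share of miR-181b-5p among miR-181a-5p and miR-181b-5p reads (x axis, percent, bars 95% Wilson intervals) at the 27 member sites with at least 20 such reads, pooled over the 3 wild-type enriched libraries, each named by its gene and distance from the start of the span. The dashed line marks all reads of these libraries (18.4%) and the dotted line the median cluster (9.84%), and the sites in Cd247 (40.1 kb), Cd3g and Lck lie at 72.7%, 71.6% and 66.7%.

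Enrichment for miR-181 in wild type raised Lat and lowered Cd3e relative to the Ago2 IP, and these were the 2 members called of 8 tested (Cd3d had too few reads). Of all 3145 genes tested 35.8% were called, 19.6% higher and 16.2% lower. Cd3e had 20, 12 and 6 reads in wild-type enriched libraries, 48.8 ± 18.7 rpm against 227.7 ± 98.9 rpm in the Ago2 IP (SD, n = 3). The groups did not overlap, and the fitted log2 fold change was -1.89 (SE 0.33, adjusted p = 1.72e-05, edgeR), called in 13 of 13 alternatives.

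Lat passed the count filter through the enriched libraries alone and Cd3e through the Ago2 IP libraries alone, each the group where it is high. The filter thus fixed the direction for Lat and favoured it for Cd3e, and both calls are a description. The other 6 did not pass the threshold: Zap70 -0.58 (adjusted p = 0.202), Lcp2 -0.42 (0.0971), Cd247 -0.24 (0.173), Lck 0.23 (0.554), Cd3g 0.053 (0.917) and Themis 0.018 (0.936, edgeR). In rpm, Lat lay above and Cd3e, Cd247, Zap70, Lcp2 and Themis below the Ago2 IP libraries without overlap, where 53.4% of all genes tested did not overlap. The median log2 fold change of all genes shifts by -0.37 with library sizes alone in place of TMM factors, and under that scaling Themis was called lower (-0.35, adjusted p = 0.0281) and the signs of Lck and Cd3g turned.

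Single sites within the genes were also compared between these groups. Of 13 member sites tested in the wild-type libraries, 5 were lower and 2 higher in the enriched libraries, where 26.3% and 30% of all 1200 sites were and 56.3% were called in either direction. This fit was added after the data were seen. The 5 lower sites all held mostly reads of other miRNAs. They were the Cd247 site at 12.9 kb (-6.10), the Cd3e site (-4.49) and the Themis sites at 133.5 kb (-4.16), 123.2 kb (-3.01) and 118.4 kb (-2.71), each with an adjusted p of at most 1.14e-06 (edgeR). All but the one at 118.4 kb passed the count filter through the Ago2 IP libraries alone, where they are high, so a difference in that direction was fixed by the filter and their count is a description.

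At the Cd247 site at 12.9 kb the reads went from 21, 14 and 10 in the Ago2 IP to 1, 2 and 0 after enrichment, in libraries that were larger. The 2 higher sites both held mostly miR-181 reads. They were the Themis sites at 88.0 kb (chr10:28756388-28756425, 1.28, adjusted p = 0.0171, edgeR), chosen after its values were seen, and at 140.7 kb (0.71, adjusted p = 0.0198). The latter had 179, 203 and 185 reads in the wild-type enriched libraries, 787.3 ± 170.4 rpm against 296.1 ± 87.4 rpm (SD, n = 3).

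Repeats of 1 position and miRNA made up 57.9% of the reads of the 140.7 kb site and 61.2% of those of the 88.0 kb site, against 3.24% to 34.1% of whole libraries. With identical reads of a library counted once, the values were -0.19 (adjusted p = 0.514) and 0.059, and neither was called. The call at 140.7 kb was also lost without wild-type Ago2 IP library 1 or 2 and in DESeq2 (0.65, adjusted p = 0.0762). That at 88.0 kb was also lost without wild-type Ago2 IP library 2 (0.85, adjusted p = 0.174) or 3 (0.98, 0.103) and in DESeq2 (1.23, 0.0611), and that site passed the count filter through the enriched libraries alone.

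In the enriched libraries, knockout against wild type, 0 of 6 members tested were called by edgeR, where 5.5% of all 2146 genes tested were, 2.1% higher and 3.4% lower, and 361 genes had an unadjusted p under 0.05. Among members this was so for Lat alone. Lat had 55, 45 and 33 reads in wild-type and 0, 0 and 2 in knockout enriched libraries, with a fitted value of -2.04 (SE 0.87, adjusted p = 0.213). It passed the count filter through the wild-type libraries alone. The 2 reads make 292.7 rpm in the shallowest library, so the groups overlapped, and without that library, with no knockout read left, the fitted value was -7.82 (adjusted p = 0.0187), which depends on the prior count. Without the filter on low counts Lat (-2.64, adjusted p = 0.0473), Cd247 (-0.94) and Themis (-0.96) were called lower.

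The other members tested were Themis (-0.33, SE 0.18, adjusted p = 0.348), Cd247 (-0.32, SE 0.25, 0.561), Lck (-0.13, SE 0.56, 0.942), Cd3g (0.68, SE 0.53, 0.551) and Lcp2 (0.079, SE 0.44, 0.960; all edgeR). With 6832 to 19264 reads in the knockout enriched libraries, Cd3d had 1, 0 and 0 reads there and Zap70 2, 2 and 0. In rpm, Cd3g and Cd3e lay above wild type without overlap, as 28.5% of all genes tested had groups without overlap. Cd3g had 2, 5 and 3 reads there and Cd3e 1, 3 and 2, so that a few reads set these levels.

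Other genes of the receptor pathway came from a list of 65, from the receptor chains and coreceptors to kinases, phosphatases and calcium channels. In the Ago2 IP 42 were tested, none was higher and 4 were lower in the knockout, beside 3.41% higher and 6.75% lower over all genes tested, with a median log2 fold change of -0.05 against 0.02 over all genes tested. Cd4 and Cd8a code for the coreceptors that bring Lck to the receptor, and Dusp5 for a phosphatase of Erk. Cd4 went from 1987 ± 428 to 677 ± 44 rpm (-1.63, SE 0.17), Cd8a from 1279 ± 63 to 731 ± 121 rpm (-0.84, SE 0.17) and Dusp5 from 403 ± 15 to 186 ± 80 rpm (-1.17, SE 0.28; SD, n = 3, edgeR). With miRNAs other than miR-181 alone, 38 were tested and 1, Cd8a, was lower (-0.72), beside 1.5% of all genes. Cd4 stood at -0.43 (SE 0.22, adjusted p = 0.420) and Dusp5 at -0.81 (SE 0.35, adjusted p = 0.248, edgeR) in that fit, not called. After enrichment 43 were tested and 1, Cd6, was lower in the knockout (-2.18, adjusted p = 0.0152, edgeR), beside 3.4% of all genes. Cd6 stood at 392.5 ± 57.9 rpm in wild-type and 79.3 ± 77.9 rpm in knockout enriched libraries (SD, n = 3). Cd6 there and Dusp5 in the Ago2 IP passed the count filter through the wild-type libraries alone, where they are high. The filter thus favoured that direction, and both calls are a description. Of 52 pathway genes tested in wild type 7 were higher and 12 lower after enrichment than in the Ago2 IP, beside 19.6% and 16.2% of all genes.

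The genes whose log2 rpm over the 12 libraries was most like that of Themis were Rpl37 (Pearson r = 0.94), Cnot6l (0.93) and Fubp1 (0.93), among 4023 genes with at least 50 reads. For Cd247 they were Usp7 (0.91), Map2k6 (0.91) and Fbxw7 (0.90). These correlations are descriptions over libraries that share 2 IP kinds and 2 genotypes and differ widely in depth.

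Across the 9 genes, sites with at least 10 reads held 55.2% of the reads. Clusters of that depth held 46.3% of all reads of the 12 libraries, within gene spans or outside them. Of the 97 sites, 62 (63.9%) had over 50% miR-181 in their pooled reads, against 74.7% of all 10812 clusters of that depth. Lat and Lcp2 had 4 sites each, Cd3d and Cd3g 3 each, Lck 2, and Cd3e and Zap70 1 each. Exon, intron and UTR classes of the sites were not used here.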

How the data were processed

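Chimeric reads were deposited by the authors as positions, 1 line for 1 read with its miRNA name and strand, so the unit is raw counts of reads. Per the submitters' processing notes, the tools were Bowtie2 2.4.5, SAMtools 1.11, STAR 2.7.10, UMI-tools 1.1.1 and bedtools 2.30.0, with the builds mm10 and GRCm38.p6. Not given in the sources used here are their roles, any filter on reads and whether duplicates were removed. Libraries were sequenced as paired reads of 150 nt, per the labels' protocols.

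Reads were counted on the gene's strand over RefSeq GRCm38.p6 spans of 49980 genes. The strand came from the annotation for 28097 genes, the 9 members included, and for the other 21883 from the strand with more reads. A read in several spans counted for each. Of the 98 reads on the other strand of Cd247, 87 lay in its overlap with Pou2f1. Fits over all genes or all clusters used edgeR 4.0.16 under R 4.3.3 (quasi-likelihood F test, TMM, filterByExpr at its minimum count, 10), only on the libraries compared, with Benjamini-Hochberg adjustment and calls at an adjusted p of at most 0.05. The fits were tested on simulated data with known changes, and recovery was lowest for the enriched libraries of both genotypes. Standard errors are the absolute log2 fold change over the square root of F. Shares have 95% Wilson intervals, and a ratio of pooled reads has an exact interval. All intervals and the limit of 3 reads for a count of 0 cover counting error only, because repeated reads need not be separate molecules. Python 3.11.15 with scipy 1.17.1 served the rest.

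Alternatives were DESeq2 1.42.0, library sizes alone, no filter, identical reads once, either strand, reads of 1 span alone, 50-nt joining, a replicate block and leaving out each library. Libraries of a group differed beyond sampling noise in chi-square tests over genes. Each counted as 1 replicate, but these tests cannot tell separate mice from technical libraries. Same-numbered libraries deviated together with correlations of 0.020 to 0.122 between wild-type IP kinds and 0.014 to 0.023 between knockout IP kinds. Each was above the best correlation with another number. Between genotypes the correlations were -0.022 to 0.013. The main fits did not take the numbers as pairs, and a block by number was run as an alternative. Main fits of enriched against Ago2 IP libraries may thus leave out a weak pairing. The members, lists and sites were chosen with earlier results of these data known. Named sites are up to 3 per member with most reads, and named miRNAs are the miR-181 family and the 5 others with most reads on the members in the Ago2 IP. Pathway genes are named where called in the Ago2 IP, up to 3 in each direction, and genes of like pattern are the 3 of highest correlation for each of the 2 members with most reads.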

Additional observations from a re-analysis of the deposited data

How the results depend on the processing

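Of 502 alternative values for members and their sites, 412 kept their direction and side of the threshold, 24 lost a call, 19 gained 1 and 47 changed sign. Counts of called features that moved by over 1.5 times were as follows: knockout against wild type in the Ago2 IP, 58 in DESeq2 against 164; without miR-181 reads, 8 in DESeq2, 20 without the filter and 18 and 16 without knockout library 1 or 2 (16 to 27 over all libraries left out), against 32; for sites, 206 without the filter against 91; in enriched libraries, 67 in DESeq2, 282 without the filter and 71 without wild-type library 2 (71 to 115 over all libraries left out), against 118; enriched against Ago2 IP, 684 in DESeq2 against 1126 for genes, and 435 with identical reads once against 676 for sites. With miR-181a and miR-181b names alone, the miR-181 share of the 9 genes was 0.806% in knockout Ago2 IP, 97.3% in wild-type enriched and 45.4% in knockout enriched libraries, and with identical reads once it was 98.4% in wild-type enriched ones.

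Signs turned as follows. Knockout against wild type in the Ago2 IP, Themis was -0.012 without the filter. Without miR-181 reads, Cd3e was 0.030 in DESeq2, and Lcp2 -0.016 without the filter and -0.0055 on either strand. The Cd247 site at 12.9 kb was -0.21 with identical reads once and -0.062 without the filter. In enriched libraries, Lck was 0.16 by library sizes, and Lcp2 -0.085 with identical reads once, -0.0098 with knockout libraries 2 and 3 summed and -0.54 without the filter. Enriched against Ago2 IP, library sizes gave Cd3g -0.32, Lck -0.15, Themis -0.35 and the Themis sites at 89.5 and 68.2 kb 0.75 and 0.56; identical reads once gave Themis -0.30 and its 140.7 kb site -0.19. The causes were not tested, apart from the shift of all genes or sites with library sizes (-0.37 for genes, 0.77 for sites).

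With single libraries left out, ranges that crossed 0 were, knockout against wild type in the Ago2 IP, Cd3g -0.26 to 0.43 and Themis -0.0073 to 0.13; without miR-181 reads, Cd3e -0.18 to 0.10, Lck -0.056 to 0.27 and Lcp2 -0.061 to 0.23; the Cd247 site at 12.9 kb -0.21 to 0.47; in enriched libraries, Lcp2 -0.59 to 0.077. Enriched against Ago2 IP they were Cd3g -0.093 to 0.59, Lck -0.024 to 0.44, Themis -0.018 to 0.10, the Cd247 site at 40.1 kb -0.12 to 1.04, the Cd3g site -0.033 to 1.09, and the Themis sites at 89.5 kb -0.28 to 0.35, 68.2 kb -0.49 to 0.16 and 162.9 kb -0.15 to 1.43.

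With the replicate number as a block, the numbers of calls were 129 and 27 for genes in the Ago2 IP with and without miR-181 reads, 91 for its sites, 100 in enriched libraries, and 1257 genes and 723 sites for enriched against Ago2 IP. The block lost Cd247 (-0.46, adjusted p = 0.0701, and -0.54, 0.0605 without miR-181 reads) and called the Themis site at 54.7 kb (1.42, adjusted p = 0.0227), all in edgeR. The main fits did not take same-numbered libraries as pairs. Each library correlated best with its own number between wild-type IP kinds and between knockout IP kinds. Between genotypes only number 3 of the Ago2 IP did so. The share of higher among called features was 33.5% in the Ago2 IP and 8.62% in DESeq2; for its sites 29.7%, 41.0% by library sizes and 11.9% in DESeq2; in enriched libraries 38.1%, 68.8% and 64.2%; and, enriched against Ago2 IP, 54.8% and 26.8% by library sizes for genes and 53.3% and 71.9% for sites. Library sizes moved the median of all features tested by 0.14 for Ago2 IP sites and 0.29 for genes in enriched libraries. Depth limits Cd3d, Zap70 and Lat most, and all members in knockout enriched libraries.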
